A study of Mus musculus with 7 samples.

Results

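The genes described here were 7 androgen-binding secretoglobins, *Scgb1b2*, *Scgb1b3*, *Scgb1b7*, *Scgb1b19*, *Scgb2b2*, *Scgb2b7* and *Scgb2b20*, measured by 8 probes in mouse nasal tissue. They were chosen because their probes had among the highest ratios of diesel exhaust particle (DEP) exposure over control at 4 or 8 weeks, so these ratios are given as a description and carry no test. They are 7 of 21367 genes that the array's transcript accessions named through RefSeq, and 12 further *Scgb1b* and *Scgb2b* genes had 15 probes. All 8 member probes were among the 25162 of 39429 probes tested, which were well above background in at least 1 channel on at least 3 of the 7 arrays. *Scgb2b20* had 2 probes, A_55_P2057004 and A_55_P2058201.

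The tissue was nasal septum and turbinate of female mice of the BALB/c strain, and the labels give an age of 6 weeks and the same strain and sex for both groups. The DEP group inhaled nebulised DEPs at 100 µg/m3 for 1 hour a day on 5 days a week, for 4 weeks or for 8 weeks, and the control group was given saline in the same way according to the methods, which describe the 4-week exposure. Each array carried DEP RNA in the red dye Cy5 and control RNA in the green dye Cy3. If the array barcodes hold, the 4 arrays at 4 weeks were on 1 slide and the 3 arrays at 8 weeks on another. The labels call the arrays biological replicates, the number of mice behind each array was not given in the sources used here, and the p-values below measure only the spread between these arrays. No array had the dyes swapped, so dye and treatment cannot be told apart. By the barcodes each exposure time had its own slide, so slide and time cannot be told apart. The DEP channel of an array had 18601 to 25069 probes well above background and its control channel 16985 to 26927, without any saturated spot. All 10 olfactory neuron marker genes sought were among the genes tested, and *Omp*, the marker of mature olfactory neurons, had a mean control level of 15.9 on the log2 scale at 4 weeks.

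Androgen-binding protein is a secreted protein of mouse saliva, tears and nasal secretions that binds steroid hormones. It is a dimer held together by disulfide bonds, with an alpha subunit from an *Scgb1b* gene and a beta-gamma subunit from an *Scgb2b* gene, and it is known for its part in mate choice between house mouse subspecies. The genes form a large cluster of duplicated copies on chromosome 7, in which an alpha gene often lies next to a beta-gamma gene.

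The RefSeq promoter table for the assembly GRCm38.p6 held 4 of the 7 members, *Scgb1b2*, *Scgb2b2*, *Scgb2b7* and *Scgb2b20*. Their 250 bases before the transcription start are shown because these 4 genes include both patterns over time described below, with *Scgb1b2* and *Scgb2b2* highest at 4 weeks and *Scgb2b7* and *Scgb2b20* highest at 8 weeks. The intervals were chr7:31291817-31292066 on the minus strand for *Scgb1b2*, chr7:31302519-31302768 on the plus strand for *Scgb2b2*, chr7:31705755-31706004 on the minus strand for *Scgb2b7* and chr7:33366320-33366569 on the minus strand for *Scgb2b20*. Each is printed 5′ to 3′ on the strand of its gene, and capitals mark the TATA box letters TATAAA and the hexamer AGAACA, which each subunit of a glucocorticoid receptor dimer recognises, both searched on both strands, so that they can also read TTTATA and TGTTCT.
Scgb1b2: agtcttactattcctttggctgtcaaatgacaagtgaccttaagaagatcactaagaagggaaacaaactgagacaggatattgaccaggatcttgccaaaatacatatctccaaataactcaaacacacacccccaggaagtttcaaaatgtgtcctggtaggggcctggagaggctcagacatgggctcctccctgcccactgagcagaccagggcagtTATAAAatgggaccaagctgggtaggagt
Scgb2b2: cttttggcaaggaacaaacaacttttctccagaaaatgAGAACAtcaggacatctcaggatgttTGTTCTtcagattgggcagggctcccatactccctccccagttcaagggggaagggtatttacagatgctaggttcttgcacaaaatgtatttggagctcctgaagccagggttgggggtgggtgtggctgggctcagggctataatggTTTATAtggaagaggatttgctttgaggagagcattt
Scgb2b7: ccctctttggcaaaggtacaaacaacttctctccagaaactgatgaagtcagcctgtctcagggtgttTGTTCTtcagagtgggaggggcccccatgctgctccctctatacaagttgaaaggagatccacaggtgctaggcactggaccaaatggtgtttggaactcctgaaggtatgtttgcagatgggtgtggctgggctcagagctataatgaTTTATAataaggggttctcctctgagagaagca
Scgb2b20: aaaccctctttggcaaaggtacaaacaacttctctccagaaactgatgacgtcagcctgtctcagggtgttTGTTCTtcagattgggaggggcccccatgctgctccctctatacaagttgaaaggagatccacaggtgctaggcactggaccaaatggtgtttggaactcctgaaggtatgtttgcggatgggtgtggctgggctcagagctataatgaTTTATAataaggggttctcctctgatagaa

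Among the member promoters, *Scgb1b2* held TATAAA on the strand of the gene, with its first base at -29 from the start, and held no AGAACA. The other 3 held TATAAA on the opposite strand, at -37 in *Scgb2b2*, -33 in *Scgb2b7* and -30 in *Scgb2b20*. AGAACA lay at -212 on the strand of the gene and at -186 on the opposite strand in *Scgb2b2*, and only on the opposite strand in *Scgb2b7* at -182 and *Scgb2b20* at -179. Of all 32851 promoter windows in the table, which reach from 250 bases before the start to 50 after it, 13.6% held TATAAA and 19% held AGAACA on either strand, against 22 and 19 of the 29 family windows. The full inverted repeat, which is AGAACA and its reverse complement with 3 bases between them, was in 0.00913% of all windows and in 0 of the 29 family windows. The motifs overlapped nowhere in the printed sequences, and a match of letters is not a binding site.

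The late pair were close copies in these windows. *Scgb2b7* and *Scgb2b20* were identical at 243 of 253 aligned positions (96%), whereas *Scgb2b2* was 72.8% identical to each of them. The *Scgb1b2* window, that of an alpha gene, was 46.1% to 48.4% identical to those of the beta-gamma members. Among family genes that were no members, *Scgb2b11* was as close to *Scgb2b20* as *Scgb2b7* was, at 96% identity, and it had no probe. *Scgb2b12* was 90.9% and 92% identical to *Scgb2b20* and *Scgb2b7*, and its ratio was higher at 8 weeks. *Scgb2b15* was 86% and 89% identical to them, and 1 of its 2 probes was higher at each time. Whether the pattern over time goes with promoter likeness was not tested.

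The chromosome 7 table listed 48 genes of the family, 35 of them protein-coding, and 19 had a probe on the array whose accession matched. Another 17 protein-coding copies had none, and the probe sequences were not used here. A signal is therefore given under the gene its probe was designed for, and which paralog's transcript it came from was not tested.

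Of the alpha subunit genes, *Scgb1b2* had nearly the same ratio on every 4-week array. Its log2 ratio of DEP over control was 3.51, 3.57, 3.54 and 3.61 on the 4 arrays at 4 weeks and 0.49, 0.43 and 0.58 on the 3 arrays at 8 weeks. The ranges did not overlap, and the means were 3.56 ± 0.04 (SD, n = 4) and 0.50 ± 0.08 (SD, n = 3), which are 11.8-fold and 1.41-fold on the linear scale. *Scgb1b3*, also an alpha subunit gene, had log2 ratios of 3.30, 3.24, 3.26 and 3.14 at 4 weeks and of 1.46, 1.27 and 1.21 at 8 weeks. Every 4-week array was higher than every 8-week array, with means of 3.23 ± 0.06 and 1.31 ± 0.13.

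The other 2 alpha genes had the opposite order. *Scgb1b7* had log2 ratios of 1.71, 1.52, 1.45 and 1.56 at 4 weeks and of 4.41, 4.43 and 4.63 at 8 weeks. *Scgb1b19* had log2 ratios of 1.86, 1.71, 1.76 and 1.86 at 4 weeks and of 4.27, 4.16 and 4.07 at 8 weeks. In both genes every array was above 0 and every 8-week array lay more than 2 log2 units above every 4-week array. The means were 1.56 ± 0.11 and 4.49 ± 0.13 for *Scgb1b7*, or 2.95-fold and 22.5-fold, and 1.80 ± 0.07 and 4.17 ± 0.10 for *Scgb1b19*, or 3.48-fold and 18.0-fold.

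Of the beta-gamma subunit genes, *Scgb2b2* had the highest mean log2 ratio of all probes tested at 4 weeks. Its log2 ratio was 3.31, 3.73, 3.79 and 3.73 at 4 weeks and 1.47, 1.49 and 1.76 at 8 weeks. Replicate 1 was the lowest of the 4-week arrays and still lay above all 8-week arrays. The means were 3.64 ± 0.22 and 1.57 ± 0.16, or 12.5-fold and 2.97-fold.

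*Scgb2b7*, a beta-gamma gene beside *Scgb1b7*, had the late pattern. Its log2 ratio was 1.29, 1.09, 1.12 and 1.15 at 4 weeks and 4.26, 3.63 and 3.94 at 8 weeks, with means of 1.16 ± 0.09 and 3.94 ± 0.31. The 8-week arrays were the most spread of any member, and on replicate 1, where the ratio was 4.26, the control channel was not well above background.

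The 2 probes for *Scgb2b20* gave different sizes. Probe A_55_P2057004 had log2 ratios of 0.75, 1.03, 1.17 and 1.15 at 4 weeks and of 4.42, 4.60 and 4.66 at 8 weeks. Probe A_55_P2058201 had 1.90, 1.83, 1.84 and 1.83 at 4 weeks and 2.17, 2.24 and 2.43 at 8 weeks. Both were above 0 on every array and higher at 8 than at 4 weeks, by 3.54 for the first and by 0.43 for the second. Both are annotated to *Scgb2b20*, and no test was made of which transcripts each of them bound.

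**Figure D1:**
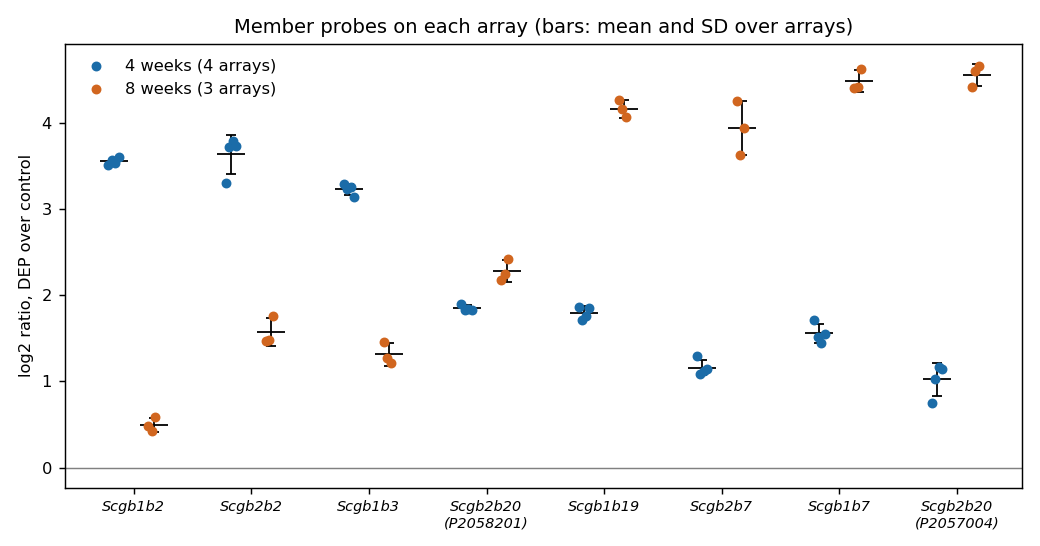
Log2 ratio of DEP over control on the vertical axis for each member probe, with 1 point per array at 4 weeks (blue) and 8 weeks (orange) and black bars for the mean and SD over arrays. *Scgb1b2*, *Scgb2b2* and *Scgb1b3* lie highest at 4 weeks, and the other 5 probes lie highest at 8 weeks, with *Scgb2b20* probe A_55_P2058201 showing the smallest gap.

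By the thresholds of the study's methods, an unadjusted p of at most 0.01 and a change of at least 2-fold, 8 of 8 member probes were called higher at 4 weeks, where 0.787% of all tested probes were, and 7 of 8 at 8 weeks, where 1.83% were. The member not called at 8 weeks was *Scgb1b2*. None was called lower at either time, where 0.338% and 0.839% of all tested probes were. By the same thresholds the DEP effect was higher at 8 than at 4 weeks for 4 member probes and lower for 3, where 1.68% and 1.11% of all tested probes were. Since the members were chosen by these ratios, nothing is read from those counts. At 8-fold or more, 7 probes (0.0278% of those tested) were higher at 4 weeks and 6 (0.0238%) at 8 weeks, and 3 and 4 of these were member probes. The 4-week ranking had *Scgb2b2* first, *Scgb1b2* at rank 4 and *Scgb1b3* at rank 5, and the 8-week ranking had *Scgb2b20* first through A_55_P2057004, followed by *Scgb1b7*, *Scgb1b19* at rank 3 and *Scgb2b7* at rank 5. Just inside the choice were *Scgb1b3* at 3.23 for 4 weeks and *Scgb2b7* at 3.94 for 8 weeks, and just outside it were *Scgb2b24* and *Scgb1b24* at 2.98 for 4 weeks and *Scgb1b20* at 2.98 for 8 weeks.

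Both channels were dimmer at 8 weeks. On all 8 member probes the DEP level and the control level were lower on the 8-week than on the 4-week arrays. A level here is the log2 intensity of 1 channel after loess and Aquantile scaling, which sets the same average brightness distribution on every array. Levels are compared between times within a probe and, apart from the summed levels below, never between probes. The control level differed by -5.42 to -1.97 (median -4.36, 8 minus 4 weeks) and the DEP level by -8.48 to -1.11 (median -2.46), against medians of 0.02 and 0.01 over all tested probes. A control level at least 4-fold lower at 8 weeks was found for 7 of the 8 probes and for 0.254% of all tested probes, and a DEP level at least 4-fold lower for 5 of the 8 and for 0.298%. In whole tissue, fewer gland cells and less RNA per cell cannot be told apart.

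*Scgb1b2* differed most between the times. Its control level was 13.64, 13.52, 13.55 and 13.60 on the 4-week arrays and 8.13, 8.21 and 8.13 on the 8-week arrays. Its DEP level was 17.15, 17.09, 17.09 and 17.21 at 4 weeks and 8.62, 8.63 and 8.71 at 8 weeks. The control level was thus 42.9-fold and the DEP level 357.5-fold higher at 4 than at 8 weeks, and DEP and control came within 0.58 log2 units of each other on every 8-week array. *Scgb2b2* had control levels of 14.68, 14.43, 14.44 and 14.39 at 4 weeks and of 11.38, 11.37 and 11.42 at 8 weeks. Its DEP levels were 17.99, 18.16, 18.23 and 18.13 at 4 weeks and 12.85, 12.86 and 13.18 at 8 weeks, a 35.8-fold difference between the means. *Scgb1b3* had mean control levels of 12.82 ± 0.05 at 4 weeks and 10.84 ± 0.06 at 8 weeks, and mean DEP levels of 16.05 ± 0.09 and 12.16 ± 0.08.

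In the late group it was the control level that differed most between the times. *Scgb1b7* had control levels of 12.50, 12.52, 12.45 and 12.50 at 4 weeks and of 7.22, 7.14 and 6.99 at 8 weeks. Its DEP levels were 14.21, 14.04, 13.90 and 14.06 at 4 weeks and 11.62, 11.57 and 11.63 at 8 weeks. The control level was 41.5-fold and the DEP level 5.46-fold higher at 4 weeks, so the higher ratio at 8 weeks stood beside a lower DEP level. *Scgb2b20* probe A_55_P2057004 had a mean control level of 12.03 ± 0.13 at 4 weeks and 7.11 ± 0.25 at 8 weeks, and a mean DEP level of 13.05 ± 0.27 and 11.67 ± 0.34. *Scgb1b19* had a mean control level of 11.26 ± 0.07 at 4 weeks and 6.42 ± 0.06 at 8 weeks, and a mean DEP level of 13.06 ± 0.13 and 10.59 ± 0.16. These late ratios were therefore measured over control signals near the lower end of the scale.

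The scanner signals show how near. For *Scgb1b19* at 8 weeks the control spot read 93, 98 and 91 intensity units over local backgrounds of 59, 59 and 62, and was well above background on 2 of the 3 arrays. The DEP spot on the same arrays read 1415.5, 1348 and 1022 units over backgrounds of 65, 69 and 66. For *Scgb2b7* the control spot read 97, 222 and 216.5 units over backgrounds of 56, 57 and 58, and it too was well above background on 2 of 3 arrays. At 4 weeks the control spot of *Scgb1b19* read 2609 to 3142 units and that of *Scgb2b7* read 2391 to 2963 units. *Scgb2b2* at 4 weeks was among the bright spots, with 252424 to 311379 units in the DEP channel and 21514 to 29560 in the control channel. Between the times the control level of *Scgb2b20* differed by -4.91 on probe A_55_P2057004 and by -2.21 on probe A_55_P2058201.

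**Figure D2:**
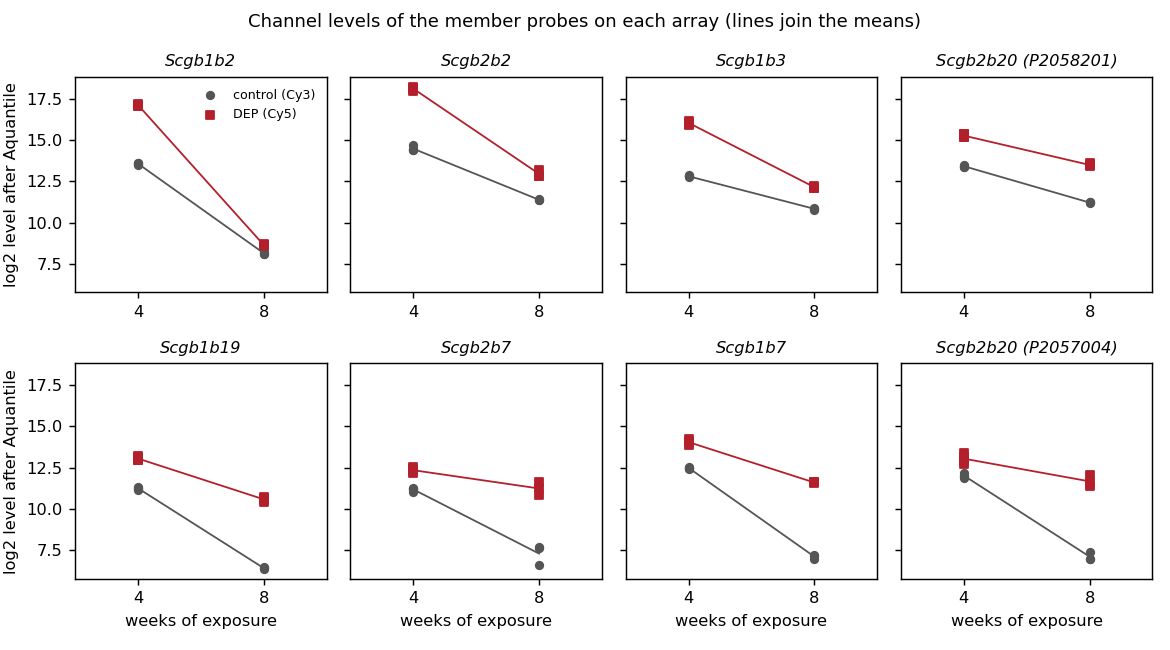
Channel level (log2 after Aquantile) against weeks of exposure for each member probe, with grey circles for control and red squares for DEP, 1 point per array, and lines joining the means. Every probe is lower at 8 weeks in both channels, and in *Scgb1b2* the channels nearly meet at 8 weeks, at 8.16 for control and 8.65 for DEP.

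The 12 other family genes, which the choice of members did not take, were tested with limma across all 25162 probes. At an adjusted p of at most 0.05 (Benjamini-Hochberg), 9 of their 13 tested probes were higher and 2 lower at 4 weeks, where 20.8% and 16.2% of all tested probes were. At 8 weeks 9 were higher and 0 lower, where 18.8% and 17.4% were. The count at 4 weeks includes *Scgb2b3*, which met the brightness filter only through its DEP spots at that time. The count at 8 weeks includes *Scgb1b30* probe A_55_P2048599, which met it only through the 8-week arrays. The filter favoured these calls, so nothing is read from them. Their median log2 ratio was 0.57 at 4 weeks and 0.64 at 8 weeks, against medians of 0.00 over all tested probes. The probes for *Scgb2b26* and *Scgb2b23-ps* were too dim to be tested.

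High ratios at 4 weeks were found in *Scgb2b24* and *Scgb1b24*, a beta-gamma and an alpha gene that are neighbours. *Scgb2b24* had a log2 ratio of 2.98 ± 0.19 at 4 weeks (SD, n = 4, limma adjusted p = 3.8e-07) and *Scgb1b24* one of 2.98 ± 0.15 (adjusted p = 1.7e-07). At 8 weeks neither channel of either probe was well above background on any array, so no ratio is given there. *Scgb1b10*, an alpha gene, was higher at 4 weeks by 2.59 ± 0.11 (adjusted p = 2.3e-06) and at 8 weeks by 0.59 ± 0.27 (adjusted p = 0.0031), and the DEP effect was lower at 8 weeks by -2.01 (adjusted p = 6.5e-05). *Scgb1b20*, the alpha gene beside *Scgb2b20*, was higher at both times, by 1.86 ± 0.08 (adjusted p = 1.2e-06) and 2.98 ± 0.10 (adjusted p = 2.2e-07), with a difference of 1.12 between the times (adjusted p = 9.8e-05).

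Smaller ratios were found for 4 further genes. *Scgb1b27* was higher by 0.57 ± 0.14 at 4 weeks and 1.12 ± 0.11 at 8 weeks, with limma adjusted p of 0.00053 and 2.9e-05. *Scgb1b30* probe A_55_P2048594 was higher by 1.01 ± 0.21 and 1.29 ± 0.01 (adjusted p = 6.9e-05 and 3.0e-05). Its other probe, A_55_P2048599, was not well above background in either channel at 4 weeks and had 0.37 ± 0.03 at 8 weeks. That probe met the brightness filter only through the 8-week arrays, so no p-value is given for it. *Scgb2b27* probe A_52_P270501 was 0.13 ± 0.07 at 4 weeks, which missed the threshold (adjusted p = 0.067), and was higher by 1.26 ± 0.09 at 8 weeks (adjusted p = 4.6e-06). Its other probe, A_55_P2094373, had the opposite order, with 0.52 ± 0.14 at 4 weeks (adjusted p = 0.015) and 0.09 ± 0.44 at 8 weeks (adjusted p = 0.68). *Scgb2b12* was lower by -0.27 ± 0.15 at 4 weeks (adjusted p = 0.021) and higher at 8 weeks (adjusted p = 6.7e-05), where its control spot was not well above background on any array and the ratio is at least 1.97-fold, taking the dimmest spot well above background on each array as the limit.

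*Scgb2b15*, a beta-gamma gene with 2 probes, showed how far probes of this family can disagree. Probe A_55_P2094378 was higher in DEP by 2.74 ± 0.34 at 4 weeks (limma adjusted p = 7.0e-06) and probe A_55_P2002876 was lower by -1.53 ± 0.19 (adjusted p = 1.1e-05), the lowest ratio of any family probe. At 8 weeks both were higher, by 1.42 ± 0.20 and 0.64 ± 0.14 (adjusted p = 0.00025 and 0.0014). The control spot of the second was well above background on only 1 of 3 arrays at 8 weeks, and its DEP spot on 3 of 4 at 4 weeks. The DEP effect differed between the times by -1.32 for the first and by 2.17 for the second (adjusted p = 0.0020 and 3.2e-05). Across the 13 tested probes the DEP effect was higher at 8 than at 4 weeks for 6 and lower for 4 at an adjusted p of at most 0.05, where 13.9% and 16.1% of all tested probes were. These counts include *Scgb2b24* and *Scgb1b24*, dim in both channels at 8 weeks, and *Scgb1b30* probe A_55_P2048599, dim in both at 4 weeks.

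Some neighbouring genes had like ratios and others did not. *Scgb1b2* and *Scgb2b2* lie next to each other and had mean log2 ratios of 3.56 and 3.64 at 4 weeks. *Scgb2b7* and *Scgb1b7* are neighbours and had 3.94 and 4.49 at 8 weeks. *Scgb2b20* and *Scgb1b20* were both higher at 8 than at 4 weeks. *Scgb2b24* and *Scgb1b24* both had 2.98 at 4 weeks, and no ratio is given for them at 8 weeks. *Scgb1b27* went from 0.57 at 4 weeks to 1.12 at 8 weeks. Its neighbour *Scgb2b27* went from 0.13 to 1.26 on 1 probe and from 0.52 to 0.09 on the other. *Scgb2b3*, between *Scgb2b2* and *Scgb1b3*, stood apart from them, with a log2 ratio of 0.44 ± 0.22 at 4 weeks. Its control spot was not well above background on any array, and its ratio is at least 1.04-fold by the same limit. The probe met the brightness filter only through its DEP spots on 3 of the 4 arrays at 4 weeks, so no p-value is given. Likeness of neighbours was not tested, and neighbours can share sequence.

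**Figure D3:**
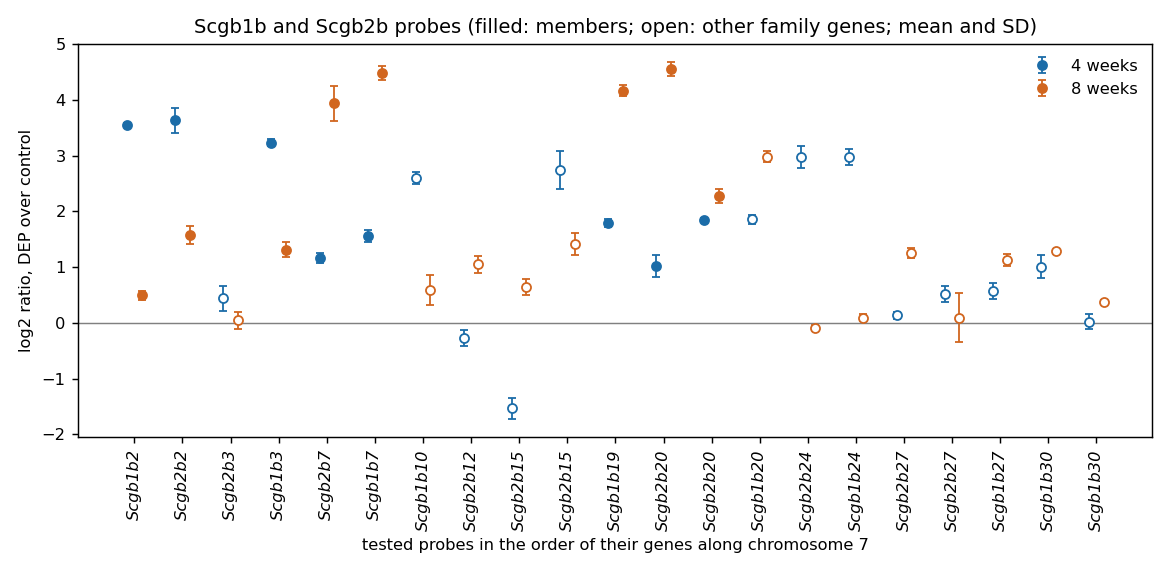
Log2 ratio of DEP over control (mean and SD over arrays) at 4 weeks (blue) and 8 weeks (orange) for the 21 tested family probes, in the order of their genes along chromosome 7 and not to scale in distance. Filled points are members and open points other family genes. Early and late patterns both occur along the cluster, and the 2 probes of *Scgb2b15* lie on opposite sides of 0 at 4 weeks.

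Probes were compared with the median profile of the members by Euclidean distance over the 7 log2 ratios, all named family probes being left out. The nearest of the probes compared were 5 without a RefSeq symbol, at distances of 1.00 to 2.92. On all 5 the control level was lower at 8 weeks, by -4.14 to -2.31. The nearest 10 genes outside the family were *Kcna4*, *Bpifc*, *Zdhhc6*, *Atxn7*, *Ung*, *2310002F09Rik*, *Serpinb8*, *I730030J21Rik*, *Mtfr2* and *Tnfrsf9*, at distances of 3.03 to 3.36. The nearest of them, *Kcna4*, a voltage-gated potassium channel gene, had log2 ratios of 1.22 and 1.51, and its control level differed by 0.35 between the times. Over these 10 genes the control level differed by 0.04 to 0.69 between the times, so none of the 10 shared the lower control level of the members at 8 weeks. The median profile mixes early and late probes. *Mucl2*, the gene outside the family nearest to *Scgb1b2* alone, had a control level that differed by -5.80.

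Some genes of salivary and lacrimal glands were also far higher in DEP at 4 weeks. Of the list of salivary and lacrimal gland genes, 23 of 28 had a probe and 22 of 26 probes were tested, with 8 higher and 10 lower at 4 weeks and 11 higher and 7 lower at 8 weeks (limma, adjusted p of at most 0.05). The background shares were 20.8%, 16.2%, 18.8% and 17.4%. *Mucl2*, a gland mucin-like gene, had a log2 ratio of 3.56 ± 0.13 at 4 weeks (adjusted p = 1.1e-07), and its control level was 12.20 at 4 weeks and 6.40 at 8 weeks, where its DEP spot was not well above background on any array. *Mucl2* was also the gene outside the family nearest to *Scgb1b2* alone. *Lpo*, the lactoperoxidase gene, was nearest to *Scgb1b3* and *Scgb2b2* and had 2.98 at 4 weeks (adjusted p = 1.7e-07) and 0.28 at 8 weeks (adjusted p = 0.019). For *Scgb1b7*, *Scgb1b19*, *Scgb2b7* and *Scgb2b20* probe A_55_P2057004 the nearest gene was no gland gene of the list but *Krt35*, a hair keratin gene, with log2 ratios of 0.04 at 4 weeks and 2.76 at 8 weeks, and for the other *Scgb2b20* probe it was *Kcna4*. Also higher at 4 weeks were *Esp6* and *Pip* of the list. Their log2 ratios were 2.64 ± 0.47 and 2.08 ± 0.14 (limma adjusted p = 2.1e-05 and 4.5e-06). At 8 weeks they were -0.37 and 0.34 (adjusted p = 0.14 and 0.024). The control level of *Esp6* differed by -2.48 and its DEP level by -5.49 (8 minus 4 weeks). Those of *Pip* differed by -0.99 and -2.73. The nearest genes of single members, *Esp6* and *Pip* were chosen after their values were seen.

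At 8 weeks other genes of the gland list went both ways. *Amy1*, salivary amylase, had a log2 ratio of -0.07 ± 0.06 at 4 weeks (limma adjusted p = 0.38) and of -4.90 ± 0.15 at 8 weeks (adjusted p = 4.4e-08). *Smr3a*, a submaxillary gland protein gene, had -4.45 ± 0.04 on 1 probe and -2.87 ± 0.11 on its other probe, and *Bpifa2*, parotid secretory protein, had -4.05 ± 0.18 at 8 weeks (adjusted p = 4.7e-08, 1.8e-07 and 7.1e-07). The tissue kallikrein genes *Klk1*, *Klk1b3*, *Klk1b5*, *Klk1b22* and *Klk1b26* were higher in DEP at 8 weeks. Their log2 ratios were 1.49, 1.32, 1.55, 1.23 and, on 1 of 2 *Klk1b26* probes, 1.74 (adjusted p between 2.0e-06 and 7.5e-06). The other *Klk1b26* probe had 0.54 (adjusted p = 0.53). At 4 weeks these kallikreins were lower in DEP, where all members were higher. Their log2 ratios were -0.23, -0.32, -0.32, -0.23 and, on the first *Klk1b26* probe, -0.21 (adjusted p between 0.0012 and 0.017). On those probes the control level differed by 0.24 to 0.66 and the DEP level by 1.88 to 2.46 (8 minus 4 weeks). In the members both levels were lower at 8 weeks. *Dcpp1*, *Dcpp2* and *Dcpp3* of the list were lower in DEP at both times. The kallikreins and the *Dcpp* genes were named after their values were seen. The control level of *Amy1* was 7.08 at 4 weeks and 12.66 at 8 weeks, the opposite of the members. The summed linear level of the salivary and lacrimal list was 111028 to 121081 in control and 188303 to 192646 in DEP on the 4-week arrays, and 102304 to 110778 and 76776 to 81056 on the 8-week arrays. The summed member probes went from 65812 to 72488 in control and 560723 to 598362 in DEP at 4 weeks to 7590 to 7840 and 32990 to 38573 at 8 weeks. A linear sum rests mostly on its brightest probes. In DEP at 4 weeks these were *Scgb2b2*, *Scgb1b2* and *Scgb1b3*, with mean log2 levels of 18.12, 17.14 and 16.05, so the sum says little about the late members. Of the list, the probes for *Klk1b1*, *Prol1* and *Smr2* were too dim to be tested. The part that the amount of gland tissue in each sample had in the members' ratios was not tested.

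In the list of nasal gland and odorant-binding genes 21 of 21 probes were tested, with 11 higher and 3 lower at each time, against the same background shares. The 4 genes with the largest changes were *Mup4*, *Lcn11* and *Obp1a*, lipocalins that carry odorants or pheromones, with log2 ratios of 1.81 ± 0.06 (1.64 on the other *Mup4* probe), 1.57 ± 0.24 and 1.50 ± 0.27 at 8 weeks, and *Muc5b*, a gel-forming mucin, with -1.54 ± 0.27 (limma adjusted p = 1.0e-06, 1.1e-05, 3.6e-05 and 2.8e-05). The control levels of these 4 genes differed by -1.19 to -0.66 between the times, less than any member. *Lcn2* and *Bpifb1* of the same list differed by -2.22 and -2.16 in control, within the members' range of -5.42 to -1.97. Their DEP levels differed by -2.06 and -2.47, and both genes were named after their values were seen. Genes of tooth enamel and dentin, which are no part of nasal mucosa, also moved, with *Ambn*, ameloblastin, at -2.41 ± 0.11 at 4 weeks and 1.52 ± 0.29 at 8 weeks (adjusted p = 3.6e-06 and 3.0e-05). The summed tooth list was 16241 to 17304 in control and 5369 to 5814 in DEP at 4 weeks, and 44207 to 45145 and 77489 to 102196 at 8 weeks. Its part in the members' ratios was not tested.

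The secretoglobins of other subfamilies did not share the size of the members' ratios. The 3 of them tested, *Scgb1a1*, *Scgb1c1* and *Scgb3a1*, had log2 ratios between -0.28 and 0.41 at 4 weeks and between -0.18 and 0.03 at 8 weeks. *Scgb1a1*, the club cell secretoglobin, had 0.03 ± 0.10 at 8 weeks (limma adjusted p = 0.78). Its mean levels were only 6.55 to 6.82, where the offset shrinks ratios, and its control was well above background on 1 of 4 arrays at 4 weeks. *Scgb3a2* was too dim to be tested. Of the steroid receptors, steroid-converting enzymes and responsive genes, 31 of 46 probes were tested, with 8 higher and 2 lower at 4 weeks, where 20.8% and 16.2% of all tested probes were, and 5 higher and 5 lower at 8 weeks, where 18.8% and 17.4% were. *Esr2*, estrogen receptor beta, was higher by 1.01 ± 0.04 at 4 weeks and 0.78 ± 0.23 at 8 weeks (adjusted p = 5.1e-05 and 0.00032).

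**Figure D4:**
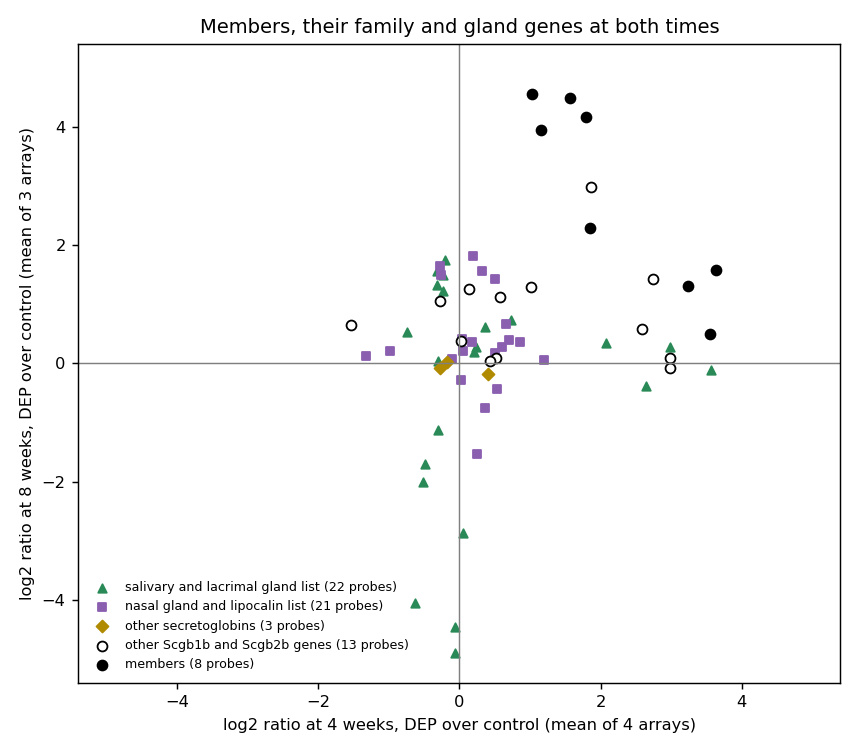
Mean log2 ratio of DEP over control at 4 weeks (horizontal, 4 arrays) against 8 weeks (vertical, 3 arrays), 1 point per tested probe, for the members, the other family genes, 2 gland lists and the other secretoglobins. Members lie above and to the right of 0, *Mucl2* at 3.56 and -0.11 lies far to the right, *Amy1* at -0.07 and -4.90 lies at the bottom, and the other secretoglobins lie near the centre.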

How the data were processed

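The values came from 7 two-colour Agilent mouse 4x44K arrays of nasal tissue, 4 at 4 weeks and 3 at 8 weeks. The authors deposited 1 file per array from Feature Extraction 10.10.1.1, per the file headers, with median spot and background signals as intensity values that are neither background-subtracted nor normalized, and processed signals as intensity values that the software background-subtracted and dye-normalized. The deposited files also hold yes or no flags for spots, used here for brightness, uniformity, background outliers and saturation. The deposited log10 ratio was not used. GeneSpring normalization and ExDEGA selection, named in the methods, were not repeated.

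Local backgrounds were removed with normexp (limma 3.58.1, R 4.3.3, offset 50), fitted without the spots that the scanner software marks as background outliers. Log2 Cy5 over Cy3 was normalized within arrays by loess, control spots and non-uniform spots having weight 0, and repeated spots were averaged. Channel levels were then scaled by Aquantile. A probe was tested where either channel was well above background on at least 3 of the 7 arrays. Of 39429 probes, 28330 were named by matching their transcript accession to RefSeq. One model of all 7 arrays gave a mean per exposure time and their difference, with p-values adjusted by Benjamini-Hochberg over 25162 probes. It was tested on simulated data. The number of arrays limits the precision, and the offset shrinks ratios of dim spots.

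The members and the gene lists were chosen with earlier results of these data known. The text names every member, and other family genes at an adjusted p of at most 0.05 and 2-fold at either time. It also names at most 4 such genes per list, and the 10 genes outside the family nearest to the members' median profile. The alternatives were other background corrections, normalizations, filters and tests, each array left out, and the replicate number as a block. The settings for the single-channel levels were added after seeing the data. The lists of ciliated, club, basal, muscle, sustentacular and vomeronasal markers were measured, and their summed levels are given at the end. Array coordinates refer to mm9 and none is printed. Promoters are those of RefSeq on GRCm38.p6, aligned globally in pairs.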

Additional observations from a re-analysis of the deposited data

Results flagged for a closer look

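On replicate 1 of 4 weeks, 3 of the 21 family probes tested had a log2 ratio apart from the other 3 arrays. *Scgb2b2* read 3.31 where the others read 3.73 to 3.79. *Scgb2b20* probe A_55_P2058201 read 1.90 against 1.83 to 1.84, and *Scgb1b27* read 0.78 against 0.48 to 0.52. Chance marks about 1 in 20 groups in this way.

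The DEP effect differed between 8 and 4 weeks in 10 tested family probes that are no members (limma, Benjamini-Hochberg adjusted p of at most 0.05, log2 ratio at 8 minus 4 weeks). It was higher at 8 weeks for *Scgb2b15* probe A_55_P2002876 by 2.17, *Scgb2b12* by 1.32, *Scgb1b20* by 1.12, *Scgb2b27* probe A_52_P270501 by 1.12, *Scgb1b27* by 0.55 and *Scgb1b30* probe A_55_P2048599 by 0.35. It was lower, at -3.07 for *Scgb2b24*, -2.89 for *Scgb1b24*, -2.01 for *Scgb1b10* and -1.32 for *Scgb2b15* probe A_55_P2094378. *Scgb2b24* and *Scgb1b24* were not well above background in either channel at 8 weeks, nor was this *Scgb1b30* probe at 4 weeks, so their differences rest on dim spots. Those of *Scgb2b12* and *Scgb2b15* probe A_55_P2002876 do so in part. Their control spots were well above background on 0 and 1 of the 3 arrays at 8 weeks. The *Scgb1b30* probe met the brightness filter only through the 8-week arrays, so nothing is read from its call. The other *Scgb2b27* probe had a difference of -0.43, which missed the threshold (adjusted p = 0.13).

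Of the gland genes named above, the effect was higher at 8 weeks for *Obp1a* by 1.76, *Mup4* by 1.62 (1.92 on its other probe) and *Lcn11* by 1.24. It was lower for *Amy1* at -4.83, *Smr3a* at -4.38 (-2.92 on its other probe), *Mucl2* at -3.67, *Bpifa2* at -3.42 and *Muc5b* at -1.79. At 8 weeks *Mucl2* was not well above background on any array in DEP and on only 1 of 3 in control, so its difference rests on dim spots.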

How the results depend on the processing

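All 358 values of single member probes under the alternatives kept their sign. The median log2 ratio of the member probes was 1.83 at 4 weeks and became 1.76 with median centring and 2.54 under a strict filter, which kept probes whose channels were both well above background on each of the 7 arrays. At 8 weeks it was 3.11 and became 3.34 with an offset of 10, 2.84 with median centring, 3.52 from the Feature Extraction processed signals and 1.93 with the strict filter, which drops *Scgb1b19* and *Scgb2b7*. Under that filter 3 in place of 5 member probes had the higher ratio at 8 weeks, the other family probes higher at 4 weeks were 5 in place of 9, and those that differed between the times were 5 in place of 10. Tested probes higher by p of at most 0.01 and 2-fold were 198 at 4 weeks and 1195 from processed signals, and 461 at 8 weeks, with 263 by median centring and 1064 from processed signals. Those differing between the times were 702, with 1104 at an offset of 10 and 2559 from processed signals. The cause was not tested. Median centring moved the median ratio of the tested probes to between -0.14 and 0.04 over the arrays, and processed signals to between -0.01 and 0.16. The methods' t-test, after Benjamini-Hochberg, called 3031 tested probes higher at 4 weeks and 2851 at 8 weeks.

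Leaving out each array in turn gave member medians of 1.81 to 1.84 at 4 weeks and 3.06 to 3.20 at 8 weeks, and 7 to 8 member probes called at 4 weeks, the 7 coming without replicate 3 or replicate 4 of that time. The median difference in control level (8 minus 4 weeks) ranged from -4.45 to -4.19 and in DEP level from -2.50 to -2.41. Among the family probes, signs turned for 4, none of them a member. *Scgb1b30* probe A_55_P2048599 at 4 weeks was -0.012 with normexp on all spots, -0.43 from processed signals and -0.018 to 0.080 with 1 array left out. At 8 weeks *Scgb1b24* was -0.030 with no background subtraction and -0.61 from processed signals, *Scgb2b3* was -0.16 from processed signals and -0.034 to 0.11 with 1 array left out, and *Scgb2b27* probe A_55_P2094373 was -0.089 to 0.34. The lowest of these came without replicate 2 of the time in question.

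The replicate numbers did not pair the arrays, since same-numbered arrays of the 2 times had deviations correlated at -0.017, -0.007 and 0.028. With the number as a replicate block, 728 tested probes, 5 member probes and 9 other family probes stood where 702, 5 and 10 did without it.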

Other observations

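Markers of other cell types on the same arrays are given as summed linear levels after Aquantile, control and then DEP. Ciliated cell genes summed to 3865 to 4093 and 4684 to 4779 at 4 weeks, and to 5266 to 5590 and 5924 to 6618 at 8 weeks. Club and secretory genes summed to 192870 to 211934 and 216064 to 252812 at 4 weeks, and to 193426 to 210747 and 187398 to 207774 at 8 weeks. Basal and squamous genes summed to 24523 to 27177 and 21522 to 24172 at 4 weeks, and to 23648 to 25772 and 24552 to 29440 at 8 weeks. Skeletal muscle genes summed to 100377 to 101499 and 89239 to 108112 at 4 weeks, and to 74515 to 79887 and 56782 to 59584 at 8 weeks. These sums moved less between the times than that of the member probes.

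Genes of the olfactory epithelium itself had another order. The olfactory neuron list summed to 86393 to 98565 in control and 155274 to 169175 in DEP at 4 weeks, and to 138562 to 157536 and 100984 to 103869 at 8 weeks, so DEP was above control at 4 weeks and below it at 8 weeks on every array. The sustentacular list summed to 74150 to 83745 and 100528 to 123115 at 4 weeks, and to 161612 to 186456 and 112573 to 118684 at 8 weeks. The vomeronasal list summed to 2940 to 3272 and 3188 to 3933 at 4 weeks, and to 3189 to 3246 and 3163 to 3949 at 8 weeks. All 9 probes of the sustentacular list were higher at 4 weeks (limma, adjusted p of at most 0.05, where 20.8% of all tested probes were), and at 8 weeks 7 were lower and 1 higher (17.4% and 18.8%). The 1 higher was probe A_55_P2136752 of *Ermn*, which had a log2 ratio of 0.32 ± 0.07 at 4 weeks and 1.70 ± 0.11 at 8 weeks (limma adjusted p = 0.0029 and 2.4e-06), while its other probe had 0.53 ± 0.25 and 0.18 ± 0.16 (adjusted p = 0.0045 and 0.25). *Sec14l3* had -1.05 ± 0.21 on 1 probe and -0.64 ± 0.19 on the other at 8 weeks (adjusted p = 0.0015 and 0.00085).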
